A study of Mus musculus with 4 samples.

Results

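The Hedgehog signalling genes described here are *Gli1*, *Gli2*, *Gli3*, *Smo*, *Ptch1*, *Sufu* and *Hhip*, 7 of 55335 genes counted in mouse oocytes. They were chosen by their symbols as core parts of one pathway, with the difference of *Gli3* between the groups in these same counts already known. Their differences between the groups are therefore given as a description. Where the fit across all genes called a member, this is stated as part of that description, and it is no independent evidence of a difference. The series held 4 oocyte libraries of the C57BL/6 strain, amplified with Smart-Seq2, which copies and amplifies whole messenger RNAs from very little material. The control group had 2 libraries, labelled with the genotype Control and with MII and WT in their descriptions. The mutant group had 2 libraries, labelled with the genotype Mutant and with MII and Mut in their descriptions. The study's mice carried a point change at the alternative splice site of exon 3 of *Ezh2*, in lines named Ezh2Long and Ezh2Short, and the labels do not say which line these mutant oocytes came from. *Ezh2* encodes the methyltransferase of Polycomb repressive complex 2, which silences genes through methylation of histone H3. The labels state neither the age of the mice, nor the number of oocytes per library, nor whether the libraries of a group came from separate animals. The spread between libraries may therefore be technical, and p-values measure only that spread.

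Hedgehog signalling carries positional information between cells. A secreted ligand binds the receptor Patched, which otherwise holds the membrane protein Smoothened inactive, and active Smoothened lets the GLI transcription factors escape their partner SUFU and reach the nucleus. Without ligand, GLI3 is cut to a shorter form that represses target genes, while GLI1 works as an activator and its gene is itself a target. In the ovary, granulosa cells make the ligands and the theca cells outside the follicle are the best known responders.

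The libraries held between 25090032 and 26617816 counts. Summed levels of 10 oocyte genes lay between 12170 and 14133 CPM (counts scaled to a common library size, here with TMM factors for composition) in the 4 libraries. *Gdf9* and *Oosp1* reached the highest values, and the 10 genes did not move together. *Ooep* was at 473 and 383 CPM in controls and 921 and 725 CPM in mutants. *Mos* was at 182 and 170 CPM in controls and 128 and 132 CPM in mutants. The *Ezh2* gene stood at 179 and 149.65 TPM (a share of all transcripts, which is a level per length) in controls 1 and 2, and at 121.7 and 151.38 TPM in mutants 1 and 2. A sum over the gene does not separate its splice forms, so these values do not check the genotype. Mutant 1 stood apart by cumulus and granulosa genes and mutant 2 by leukocyte genes, with values given beside the results they touch.

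*Gli3* and *Sufu* were the most abundant members, and the groups were apart in the former and overlapped in the latter. For this reason the 250 bases before their RefSeq start sites are shown (GRCm38.p6, plus strand, 5′ to 3′), with each CG pair in capitals. CG-rich promoters are where Polycomb complexes are mostly found in other cells, but no chromatin was measured in this series.
*Gli3*, chr13:15463473-15463722: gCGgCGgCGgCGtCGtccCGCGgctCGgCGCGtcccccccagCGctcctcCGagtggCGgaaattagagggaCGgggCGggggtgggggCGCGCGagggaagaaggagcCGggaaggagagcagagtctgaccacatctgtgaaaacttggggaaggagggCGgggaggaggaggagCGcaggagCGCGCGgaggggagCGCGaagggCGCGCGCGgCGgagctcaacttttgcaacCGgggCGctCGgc
*Sufu*, chr19:46396646-46396895: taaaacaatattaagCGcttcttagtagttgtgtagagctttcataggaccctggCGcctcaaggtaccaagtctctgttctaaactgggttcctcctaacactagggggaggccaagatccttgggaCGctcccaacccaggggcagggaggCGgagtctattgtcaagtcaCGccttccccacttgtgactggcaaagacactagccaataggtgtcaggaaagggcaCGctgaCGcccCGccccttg

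The stretch before *Gli3* held 34 CG pairs and the one before *Sufu* held 8. Over windows of 300 bases, which add 50 bases after the start, *Gli3* had 39 CG pairs, more than 95.6% of the 32851 RefSeq windows, and *Sufu* had 12, more than 60.4%. The window of *Ptch1* held 47, that of *Hhip* 30, that of *Gli2* 28 and that of *Smo* 17, where the median window held 7. The GLI binding motif GACCACCCA, searched on both strands, lay in 0.253% of all windows and in none of the 6 member windows. *Gli1* is a member without a window. The RefSeq start of *Gli3* lies 257 bases before the start of its main GENCODE transcript, so this window does not end at the start of that transcript.

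*Gli3* (ENSMUSG00000021318.15, chr13:15463235-15730026, mm10, plus strand) encodes the GLI factor that acts mainly as a repressor. Controls 1 and 2 held 91.5 and 95.8 CPM of it, and mutants 1 and 2 held 224 and 357 CPM. Both mutant libraries lay above both control libraries, and the mutant libraries differed from each other far more than the control libraries did. The control mean was 93.6 ± 3.10 CPM and the mutant mean 290 ± 94.1 CPM (SD, n = 2 libraries each). The mean was thus 3.10-fold higher in mutants, with a log2 fold change of 1.63 (SE 0.24). In raw reads this was 2271 and 2415 counts against 6295 and 9495 counts. Amplified reads are not independent molecules, so these counts do not give the number of molecules sampled.

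In the fit across all genes *Gli3* was the 1 member of the 4 tested called (edgeR quasi-likelihood test with the p-value adjusted over all genes after Benjamini and Hochberg, under 0.05). Over all 15493 tested genes 3.75% passed in either direction and 1.77% were higher in mutants. Since this contrast was known when the members were chosen, nothing is read from that count. With RSEM expected counts, which divide reads between genes that share them, *Gli3* had 2104 and 2260 counts in controls and 5900 and 8802 counts in mutants, and a log2 fold change of 1.64 (SE 0.23). That fit called 1.69% of tested genes higher in mutants, with *Gli3* among them. With control 1 left out the log2 fold change of *Gli3* was 1.59, and with control 2 left out it was 1.62, and in either case the call was lost.

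**Figure D1:**
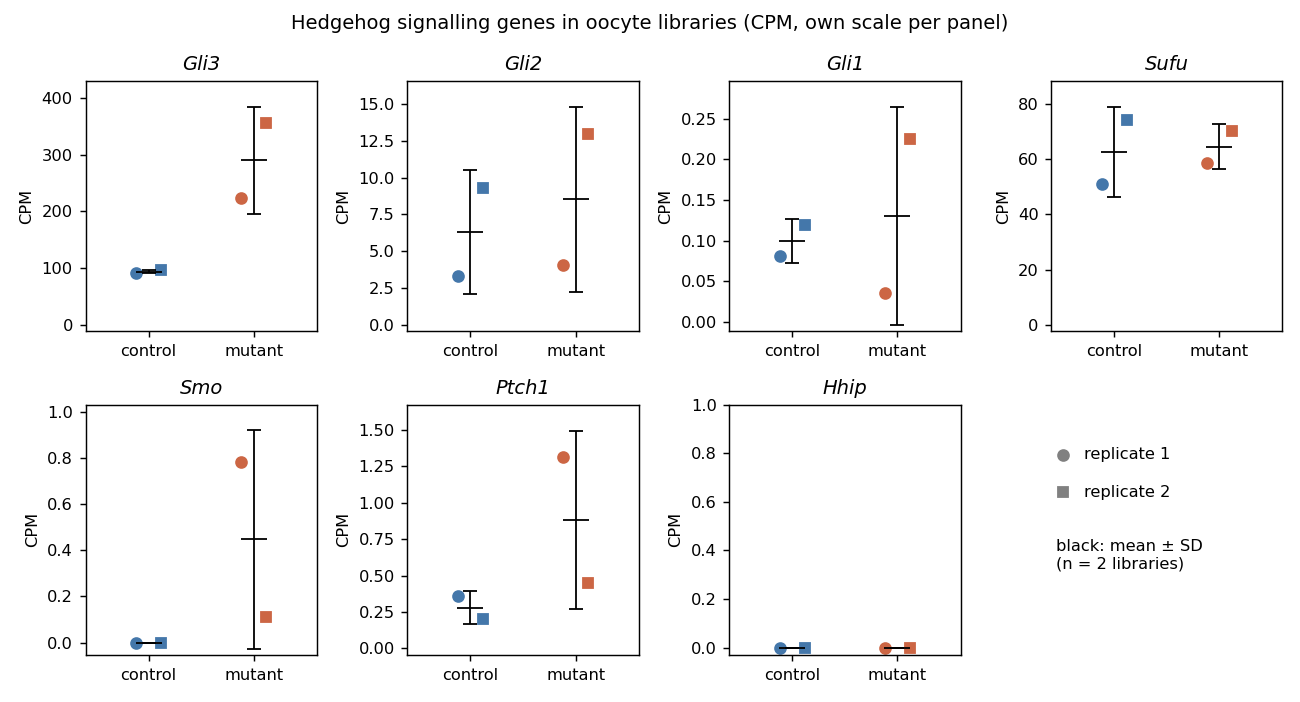
Level of each member in CPM (vertical axis, a scale of its own per gene) in control and mutant libraries; circles are replicate 1, squares replicate 2, and black bars the mean ± SD of 2 libraries. Gli3 is 91.5 and 95.8 CPM in controls and higher, 224 and 357 CPM, in mutants, Sufu overlaps between the groups, and Hhip is at 0 throughout.

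*Gli2* (ENSMUSG00000048402.14, chr1:118834132-119053619, minus strand) encodes the GLI factor known as the main activator downstream of Smoothened. It was at 3.34 and 9.29 CPM in controls 1 and 2, while it reached 4.08 and 12.96 CPM in mutants 1 and 2. The groups overlapped, and the libraries numbered 2 were the higher ones in both groups. The log2 fold change was 0.43 (SE 0.67), smaller than the spread between libraries. Within a library the TPM of *Gli3* was 3.16 to 9.95 times that of *Gli2*.

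*Gli1* (ENSMUSG00000025407.7, chr10:127329882-127341974, minus strand), whose product is an activator and whose transcription is a common readout of active signalling, was barely detected. It had 2 and 3 counts in controls and 1 and 6 counts in mutants, and 0 to 1 RSEM counts per library. These levels are close to the floor of 3 counts over a group, which is 0.0600 CPM for controls and 0.0548 CPM for mutants, so no fold is given. The gene overlaps *Arhgap9* at its end, a gene at 2.26 and 0.476 CPM in controls and 0.994 and 15.6 CPM in mutants. *Gm47200*, an antisense gene, also overlaps it and had 2 and 0 counts in controls and 7 and 1 counts in mutants. No source used here says whether the counting used strand, so some of the few *Gli1* counts may belong to these neighbours.

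*Sufu* (ENSMUSG00000025231.17, chr19:46396896-46488804, plus strand) encodes the protein that holds GLI factors back in the cytoplasm. It was at 51.1 and 74.2 CPM in controls 1 and 2, beside 58.8 and 70.4 CPM in mutants 1 and 2. Both mutant values fell between the control values. Its mean was 62.6 ± 16.3 CPM over controls and 64.6 ± 8.17 CPM over mutants (SD, n = 2 libraries each), with a log2 fold change of 0.04 (SE 0.22).

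*Smo* (ENSMUSG00000001761.7, chr6:29735503-29761365, plus strand) encodes Smoothened, the membrane protein that passes the signal on. It had 0 counts in both controls, 22 counts in mutant 1 and 3 counts in mutant 2. Summed over the group the mutant level was 7.61 times the floor for controls, with most of the counts in mutant 1 alone. Mutant 2 was at 0.113 CPM, beside that floor of 0.0600 CPM. The floor covers counting error only, so the fold is no lower bound for each mutant library. The gene was too low to be tested. Mutant 1 was also the library with most cumulus and granulosa transcripts, and the part of those cells in the *Smo* counts was not tested.

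*Ptch1* (ENSMUSG00000021466.12, chr13:63508328-63573598, minus strand), the Hedgehog receptor and a target gene, had 9 and 5 counts in controls and 37 and 12 counts in mutants. This is 0.362 and 0.198 CPM against 1.31 and 0.451 CPM. The groups did not overlap, but the log2 fold change of 1.64 had an SE of 0.88 and mutant 1 again held most of the counts. *Hhip* (ENSMUSG00000064325.4, chr8:79965851-80058006, minus strand), whose product binds and removes ligand, had 0 counts in all 4 libraries, which allows up to 0.0600 CPM in controls and 0.0548 CPM in mutants. Of the 4 tested members, *Gli3* and *Ptch1*, 2 in all, had groups that did not overlap, beside 54.6% of all tested genes.

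Levels between genes are compared per length, in the deposited TPM. *Sufu* was at 23.4, 37.9, 28.9 and 37.2 TPM in control 1, control 2, mutant 1 and mutant 2. *Gli3* was at 14.8, 17.1, 44.2 and 68.4 TPM in the same order, and *Gli2* at 2.46, 5.4, 4.44 and 10.4 TPM. *Sufu* was thus the highest member in both controls and *Gli3* the highest in both mutants. The ratio of *Gli3* to *Sufu* within a library, which no scaling between libraries can move, was 0.631 and 0.450 in controls and 1.53 and 1.84 in mutants.

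By its mean over the libraries *Gli3* stood above 80.6% of the tested genes in TPM and *Sufu* above 79.0%, which does not place one clearly over the other given their spread. *Gli2* stood above 54.5%. *Ptch1* followed at 0.550 to 0.790 TPM, *Smo* at 0 to 0.290 TPM, *Gli1* at 0 to 0.0200 TPM and *Hhip* at 0. *Smo* and *Gli1* cannot be ordered at this depth. The oocyte libraries therefore held transcripts of *Gli3* and of the binding partner gene *Sufu* at moderate levels, and of *Gli2* at lower levels. They held few or none of the receptor, of Smoothened and of *Gli1*. Most *Gli2* transcripts were assigned to short forms, as described below.

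**Figure D2:**
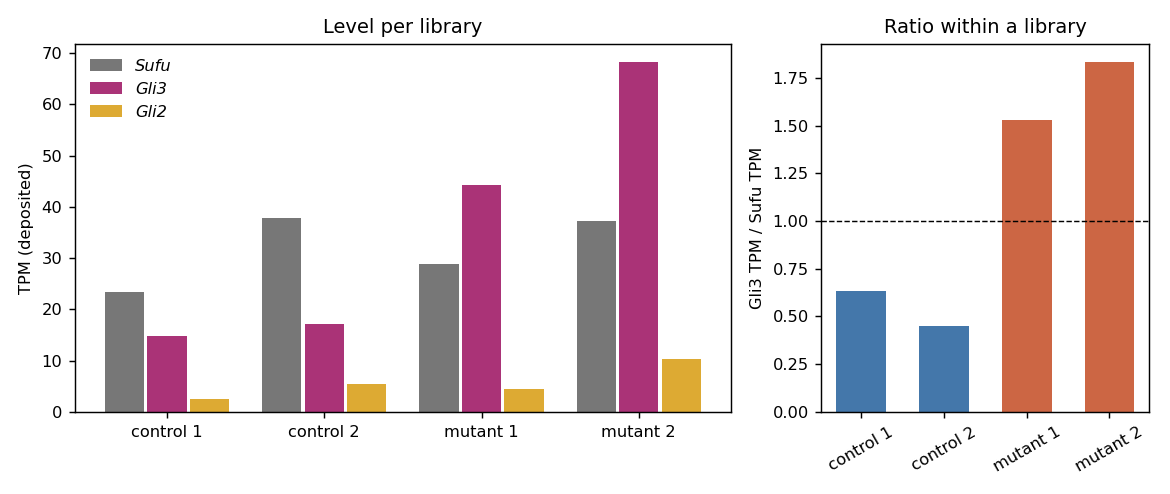
Left, deposited TPM (vertical axis) of Sufu, Gli3 and Gli2 in each library; right, the Gli3 to Sufu ratio of TPM within each library, with a dashed line where they are equal. The ratio is 0.631 and 0.450 in controls and 1.53 and 1.84 in mutants.

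The RSEM tables give for each gene a mean transcript length weighted by abundance, which describes which annotated transcripts the reads were assigned to. All 39 member transcripts of GENCODE M21 were listed for these genes in the deposited tables, so bounds on the share of a transcript follow from its length and the lengths of the others. *Gli3* had mean lengths of 8154, 8133, 8146 and 8150 bases in control 1, control 2, mutant 1 and mutant 2, beside 8170 bases for its full-length coding transcript and at most 2915 bases for the others. The full-length transcript therefore made up at least 99.3% of the *Gli3* transcripts in every library. The higher level in mutants was a level of this same transcript, as far as the estimates by RSEM go.

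*Gli2* differed from that pattern. Its mean lengths were 1968, 2649, 1649 and 2228 bases in the same order, where the full-length transcript has 6637 bases and the others 367 to 1411. The full-length share lay between 10.7% and 25.5% in control 1 and between 23.7% and 36.4% in control 2. It lay between 4.55% and 20.4% in mutant 1 and between 15.6% and 29.7% in mutant 2. Most *Gli2* transcripts in each library were assigned to short forms that end before the long last part of the gene, and the ranges of the groups overlapped.

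*Sufu* had mean lengths of 3123 and 3118 bases in controls and 3491 and 3260 bases in mutants, with a longest transcript of 4522 bases. The share of that transcript could lie between 24.0% and 66.6% in control 1 and between 44.0% and 75.4% in mutant 1, so the bounds overlap. *Ptch1* had mean lengths of 1042 and 849 bases in controls and 2029 and 1121 bases in mutants, where its 4 longest transcripts have 7002 to 10383 bases. These long forms made up at most 10.4% and 7.52% in controls and 25.2% and 11.6% in mutants, estimates that rest on 5 to 23 RSEM counts per library. The RSEM length of a gene with no reads is a plain mean over its transcripts, so the lengths of *Hhip*, and of *Smo* in controls, carry no information.

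**Figure D3:**
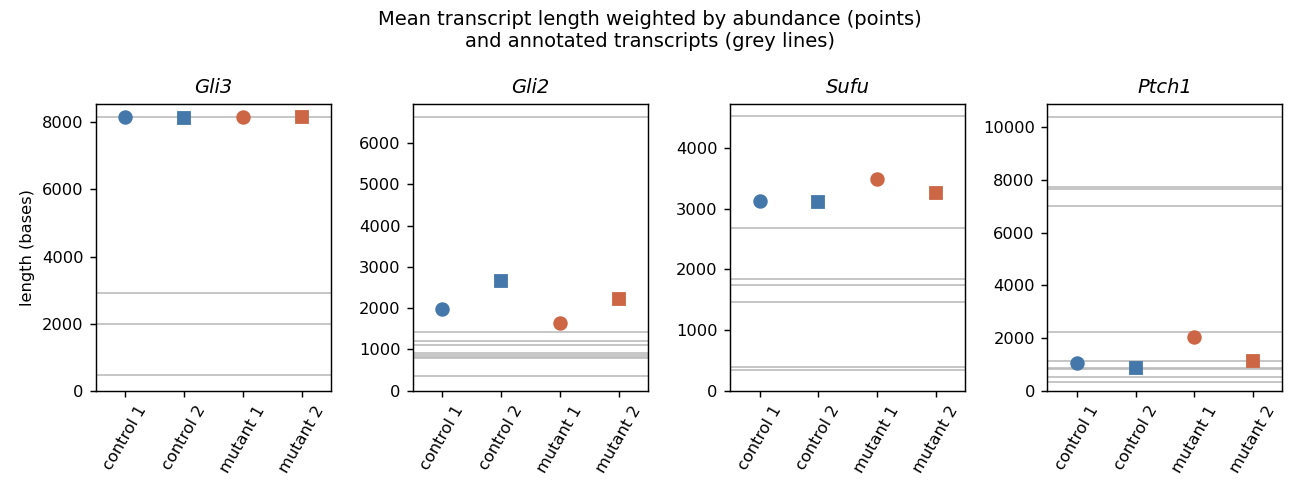
Mean transcript length in bases weighted by abundance (vertical axis) in each library for Gli3, Gli2, Sufu and Ptch1; grey lines are the lengths of the annotated transcripts. Gli3 lies on its 8170-base transcript in all 4 libraries, while Gli2 lies between 1649 and 2649 bases, far under its 6637-base transcript.

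Other genes of the pathway came from 8 lists with 109 genes, of which 11 had no count in any library and 74 were abundant enough to test. With edgeR 0 of the 74 passed over all genes, the smallest adjusted p being 0.0640. An unadjusted p under 0.05, in either direction, was found for 15 of the 74, 20.3% beside 23.0% of all tested genes. Of these 15, 14 were higher and 1 was lower in mutants. The split by direction over all tested genes was not counted at this threshold, so nothing is read from this one. With an adjusted p under 0.05 by edgeR, 274 of the 581 genes called over all genes were higher in mutants. By list the 15 were 5 of 12 regulators of Smoothened, 3 of 12 kinase genes, 2 of 10 degradation genes and 2 of 20 ciliary genes. The rest were 2 of 11 targets, 1 of 4 related zinc finger genes, 0 of 2 ligand genes and 0 of 3 receptor genes. The median log2 fold change of the 74 was 0.21, beside 0.05 over all tested genes. DESeq2 on the same genes called 5 of the 74, beside 1993 of the 15493 in all. With limma trend 1 of the 74 was called, beside 738 of the 15493. With edgeR on RSEM counts 0 of 71 were called, beside 513 of 13182 in all. The 5 were *Prkar1a*, *Cul3*, *Ift57* and *Ccnd2*, higher in mutants, and *Skp1a*, lower, and limma trend called *Ccnd2*.

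The ligand genes were close to absent. *Ihh* had 0 counts in all libraries and *Dhh* had 1 count in control 1 and 1 in mutant 1. *Shh* had 1 and 0 counts in controls and 15 and 3 counts in mutants, with most again in mutant 1. The ligand genes, like *Cul3*, *Ccnd2*, *Bcl2* and others named for a zero, for 1 library or for a small p, were singled out after their values were seen. Of 9 genes for ligands and their release 2 were tested, and neither passed. *Hhat*, which attaches the fatty acid that ligands carry, was at 37.98 and 36.4 CPM in controls and 30.4 and 32.0 CPM in mutants (log2 fold change -0.25, SE 0.18). *Disp1*, which releases ligand from producing cells, was at 6.40 and 14.96 against 15.2 and 9.62 CPM.

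Among 7 receptor and co-receptor genes 3 were tested and none passed. *Gas1*, a co-receptor gene, had 0 counts in all libraries. *Boc*, another co-receptor gene, had 2 and 4 counts in controls, 86 counts in mutant 1 and 1 count in mutant 2. *Gpc3*, a cell surface proteoglycan gene that limits Hedgehog ligands, was at 4.63 and 4.88 CPM in controls and 6.71 and 7.02 CPM in mutants (log2 fold change 0.53, SE 0.32, adjusted p = 0.384 by edgeR). *Cdon*, a further co-receptor gene, was at 3.91 and 5.24 against 4.40 and 4.09 CPM.

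Of 15 regulators of Smoothened, 12 were tested and none passed. *Smurf2*, a ubiquitin ligase gene, was at 203 and 200.2 CPM in controls and 266 and 253 CPM in mutants (log2 fold change 0.36, SE 0.13, adjusted p = 0.175 by edgeR). *Mosmo*, which lowers Smoothened at the membrane, was at 25.9 and 22.8 against 24.3 and 34.0 CPM, so its groups overlapped. Of 15 genes for kinases of GLI proteins and for protein kinase A, 12 were tested and none passed. Some of these kinases mark GLI3 for cutting. *Csnk1e* was the most abundant, at 566 and 493 CPM in controls and 426 and 434 CPM in mutants (log2 fold change -0.30, SE 0.15), and *Csnk1a1* was at 208 and 252 against 301 and 242 CPM.

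Of 11 genes for cutting or degrading GLI proteins 10 were tested and none passed, with levels from 0 counts in both controls for *Kctd11* to 2269 CPM for *Cul1* in control 1. *Cul1* and *Skp1a* encode parts of the ubiquitin ligase that starts the cutting of GLI3. *Cul1* was at 2269 and 1799 CPM in controls and 1443 and 1801 CPM in mutants. *Skp1a* was at 1337 and 1207 CPM in controls and 845 and 875 CPM in mutants (log2 fold change -0.56, SE 0.15, adjusted p = 0.0865 by edgeR). *Cul3*, the scaffold of the SPOP ligase that removes full-length GLI proteins, was at 38.9 and 33.0 against 65.0 and 59.2 CPM, with the smallest adjusted p of all 8 lists, 0.0640 by edgeR.

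All 20 genes for transport in the cilium, the organelle where vertebrate Hedgehog signals are passed on, were tested and none passed. *Tnpo1*, a nuclear import receptor that also serves the cilium, was at 601 and 646 CPM in controls and 742 and 807 CPM in mutants (log2 fold change 0.31, SE 0.15). *Kif3a*, a subunit of the motor that builds cilia, was at 102 and 104 against 88.6 and 101 CPM. Of 8 zinc finger genes related to the GLI genes 4 were tested and none passed. *Glis3* was at 55.3 and 62.4 CPM in controls and 63.6 and 53.7 CPM in mutants, with a log2 fold change of -0.01 (SE 0.17), and *Glis1* was at 10.6 and 19.3 against 16.3 and 17.0 CPM.

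Of 24 genes known as GLI targets in other tissues 11 were tested and none passed with edgeR, and 5 had no count in any library. The median log2 fold change of the 11 was 0.65, with values from -0.65 to 5.24, beside a median of 0.05 over all tested genes. Some of these values rest on single libraries: *Grem1* had 184 and 0 counts in controls and 510 and 0 counts in mutants. *Foxm1*, a cell cycle factor, was at 14.1 and 20.4 CPM in controls and 28.2 and 22.4 CPM in mutants. *Spp1*, which encodes the secreted protein osteopontin, was at 384 CPM in control 1, 0 in control 2, 1045 CPM in mutant 1 and 79.1 CPM in mutant 2, and so moved with single libraries. *Ccnd2*, a cyclin gene, had 3 and 0 counts in controls and 34 and 98 counts in mutants (adjusted p = 0.0648 by edgeR), and *Bcl2* had 155 counts in mutant 2 beside 0 to 3 counts in the other libraries.

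**Figure D4:**
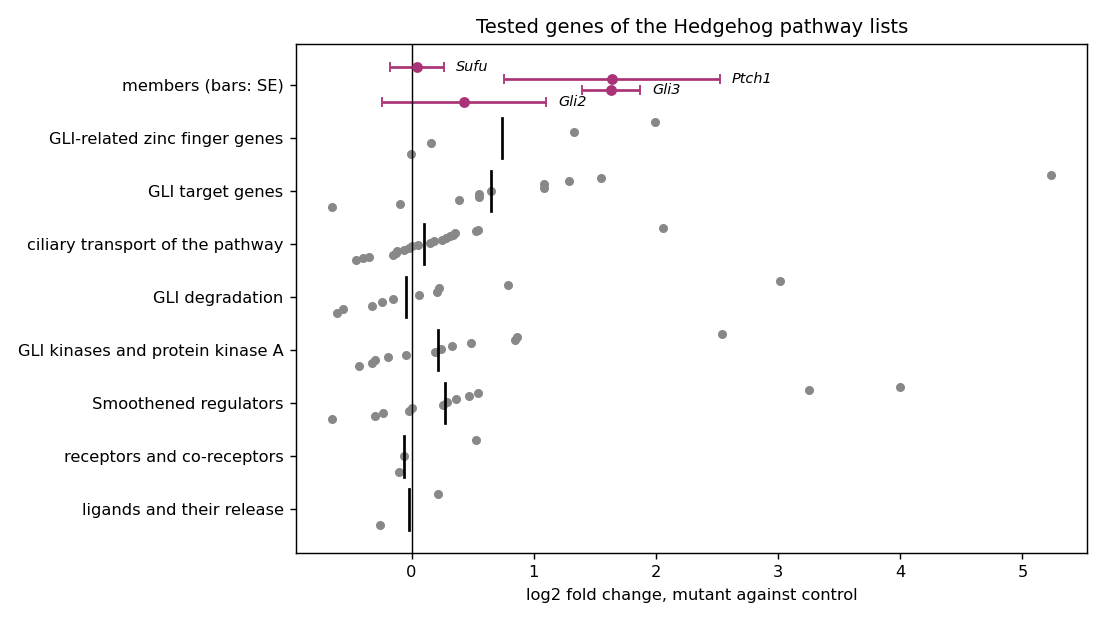
Log2 fold change of mutant against control (horizontal axis) for each tested gene of the 8 pathway lists (grey points, black bar at the list median) and for the 4 tested members (with SE). None of the grey points passed the test over all genes, and list medians lie between -0.06 and 0.74.

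Markers of other cells differed between libraries in ways that touch the low members. Summed over 13 cumulus and granulosa genes, the level was 71.6 and 55.2 CPM in controls 1 and 2, 355 CPM in mutant 1 and 45.2 CPM in mutant 2, with 10, 6, 13 and 10 of the genes above 0. The genes of this list did not move together. *Gja1*, a gap junction gene, was at 10.9 and 0 CPM in controls and 99.3 and 7.96 CPM in mutants, and *Inhba* was at 8.98 and 0.198 against 86.7 and 1.92 CPM. *Cyp19a1*, the aromatase gene, was the highest gene of this list in both controls, at 34.2 and 42.5 CPM. In mutants *Cyp19a1* was at 16.4 and 23.6 CPM (log2 fold change -0.94, adjusted p = 0.0864 by edgeR). Like *Cd74* and *Fcer1g* among the leukocyte genes, *Cyp19a1* is named after its values were seen. Summed over 13 theca and stroma genes, the level was 15.6, 8.93, 86.8 and 9.20 CPM in the same order, mostly from *Hsd3b1* at 68.8 CPM and *Cyp11a1* at 8.91 CPM in mutant 1, with 7, 7, 8 and 10 genes above 0. The theca gene *Cyp17a1* and the stromal factor *Tcf21* had no count in any library. Fewer cells of a type and less RNA per cell cannot be told apart in such libraries.

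Summed over 10 leukocyte genes, the level was 36.0 and 36.7 CPM in controls, 40.2 CPM in mutant 1 and 215 CPM in mutant 2, where *Lcp1* and *Coro1a* were at 71.3 and 64.3 CPM. Of these genes 3, 2, 7 and 10 were above 0. *Lcp1* made up most of the sum in control 1 (32.4 CPM), control 2 (31.5 CPM) and mutant 1 (33.6 CPM). *Cd74* had 0 counts in both controls and 76 and 27 counts in mutants 1 and 2 (adjusted p = 0.0428 by edgeR), and *Fcer1g* had 0 counts in both controls and 25 and 13 counts in mutants. Summed over 5 endothelial genes, it was 33.2 and 46.0 CPM in controls and 41.4 and 46.5 CPM in mutants, mostly *Pecam1* and *Tek*, while *Emcn* had no count in any library. *Gli3* was at 224 CPM in mutant 1 and 357 CPM in mutant 2, and both of these libraries held more of some markers of other cells than the controls did. The counts of *Smo*, *Ptch1*, *Shh* and *Boc* were highest in mutant 1, and those of *Gli2* and *Gli1* in mutant 2. The part of other cells in these values, that of *Gli3* included, was not tested.

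**Figure D5:**
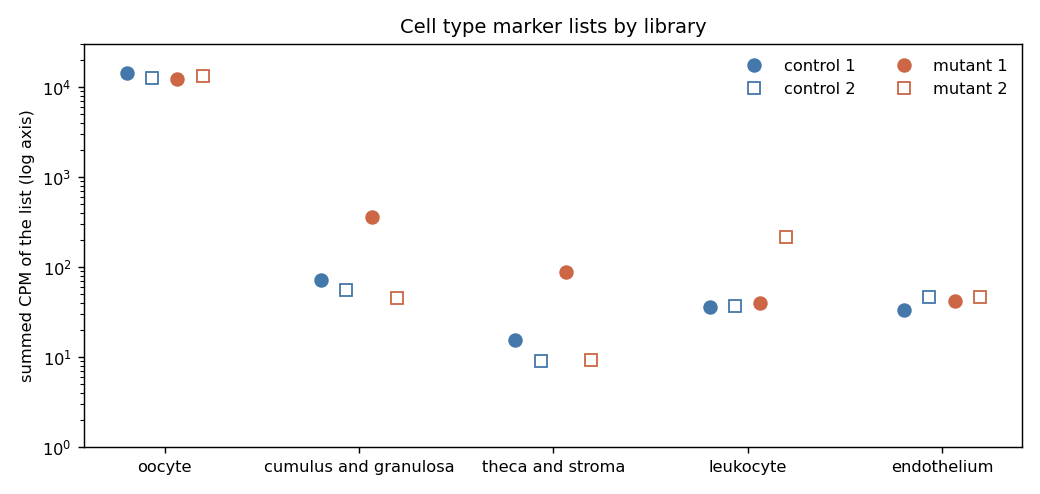
Summed CPM of 5 marker lists (log vertical axis) in each library; filled circles are replicate 1 and open squares replicate 2. Oocyte genes lie between 12170 and 14133 CPM, cumulus and granulosa genes reach 355 CPM in mutant 1 and leukocyte genes 215 CPM in mutant 2.

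The protein-coding neighbours of *Gli3* on chromosome 13 and the genes that overlap it are given by their values. *Psma2*, a proteasome gene 788999 bases before it, was at 605 and 554 CPM in controls and 433 and 447 CPM in mutants. *Inhba*, 281825 bases after it and a marker of granulosa cells, was at 8.98 and 0.198 CPM in controls and 86.7 and 1.92 CPM in mutants, high in mutant 1 alone. *Gm6556*, a non-coding gene on the other strand that overlaps the start of *Gli3*, had 0 counts in both controls and 7 and 20 counts in mutants 1 and 2. *Gm48343*, a processed pseudogene within *Gli3*, had 0 counts in both controls and 2 and 3 counts in mutants. Both genes thus had counts in the mutant libraries alone, where *Gli3* was higher too. With no knowledge of strand in the counting, reads from *Gli3* and from *Gm6556* cannot be told apart where they overlap. *Gm6556* ends at base 15463736, before the start of the full-length *Gli3* transcript at base 15463980. None of the protein-coding neighbours of the other members passed the test, the smallest adjusted p being 0.0793 for *Anapc10* beside *Hhip* (edgeR).

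The genes whose levels over the 4 libraries were most like those of *Gli3* were *Zfp992*, *Tmtc2*, *Triobp*, *Isoc1* and *Amot*. Likeness was the Euclidean distance of log2(CPM + 1) after centring each gene on its mean, over the 6534 genes whose mean reached 10 CPM. *Zfp992*, a zinc finger gene, was nearest at a distance of 0.144, with 8.98 and 10.4 CPM in controls and 24.6 and 35.9 CPM in mutants. *Tmtc2* followed at 0.158, with 24.3 and 29.6 against 68.4 and 106 CPM. The other 3 lay at 0.295 to 0.321. With 4 libraries such a ranking describes these libraries only.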

How the data were processed

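Gene counts in 4 mouse oocyte libraries (2 control, 2 mutant, grouped by title) were analysed. The authors deposited 1 matrix holding whole-number gene counts and, for each library, a table that per the file headers has the form of RSEM gene results, with expected counts, TPM, FPKM and lengths in bases. Per the submitters' processing notes cutadapt 1.16, STAR, RSEM and mm10 were used; their settings, the use of strand and the tool that counted the matrix were not given in the sources used here. Deposited FPKM values stayed unused. Expected counts were rounded to whole numbers.

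Counts of 15493 genes that passed filterByExpr went into a quasi-likelihood test of group alone with TMM scaling (edgeR 4.0.16 in R 4.3.3). The p-values were adjusted after Benjamini and Hochberg and called under 0.05. A check on simulated counts gave every gene the same dispersion, so it does not give the error rate in these libraries. DESeq2 1.42.0, limma 3.58.1 (trend, prior count 2), other scalings and filters, RSEM counts, a replicate block and each library left out were alternatives. An exact permutation test of 2 against 2 libraries cannot go below p = 0.333 and was not used. Floors are 3 counts over a group and cover counting error only, since amplified reads are not independent molecules. Coordinates are from GENCODE M21, where 55154 of 55335 IDs matched without version. Members, lists and rules were chosen with earlier results of these data known. The text names the members and, per pathway list, the genes that passed or the 2 most abundant tested. It also names the nearest protein-coding neighbours of *Gli3* with at least 1 CPM, but not all those of the other members. The 5 genes most like *Gli3* and the 2 highest markers per list are named too. Others are named after their values were seen.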

Additional observations from a re-analysis of the deposited data

How the results depend on the processing

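*Gli3* kept a positive log2 fold change under all 13 alternatives and was called in 11 of them, which is no independent evidence since it was chosen for this difference. Leaving out a library gave log2 fold changes from 1.25 to 1.91, and the call was lost without control 1 (1.59) or without control 2 (1.62), so that between 0 and 1 members were called. With 1 library in a group, that library is assumed to vary like the others. The count over all genes ranged from 22 to 1688 with a library left out (22 without control 1, 27 without control 2, 1688 without mutant 1, 1025 without mutant 2), and was 1993 with DESeq2 and 1322 without a filter. With the replicate block it was 1213, and *Gli3* had a log2 fold change of 1.59 and was called; deviations of same-numbered libraries correlated at 0.176 over genes, and with 2 pairs the numbers are not taken to pair the samples. Of the wider pathway genes 5 passed with DESeq2, 1 with limma trend, 2 without a filter (*Cul3*, *Ccnd2*), 1 among genes of at least 10 CPM (*Cul3*), 2 with the replicate block (*Ift57*, *Ccnd2*) and between 0 and 6 with a library left out. *Gli2* ranged from -0.64 to 1.31 with a library left out, negative without control 1 (-0.13) and without mutant 2 (-0.64), and *Sufu* from -0.21 to 0.29, negative without the same libraries (-0.21 and -0.10); the cause was not tested. *Smo*, *Gli1* and *Hhip* were limited by depth.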
